A study of Xenopus tropicalis with 12 samples.

Results

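Of the 19921 Ensembl genes counted in the intestine of Xenopus tropicalis tadpoles, 54 had high counts before metamorphosis and fell at least 8-fold by its climax, both in wild-type (WT) animals and in animals without thyroid hormone receptor (TR). A gene was a member when its mean normalised count at stage 54 was at least 100 in each genotype and its mean at stage 61 was at most the stage 54 mean divided by 8 in each genotype. In addition, the TRDKO mean at stage 54 had to exceed the WT mean divided by 4. Normalised counts are read counts divided by a size factor for each library, the median over genes of the ratio to the geometric mean, taken over the 12983 genes with counts in every library. The members were thus chosen by their fall in both genotypes, and the size of that fall is described below without a test.

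The tadpole intestine is a long tube lined by a single layer of larval epithelium, which digests and absorbs the food of the tadpole. At metamorphosis thyroid hormone (T3) rises, the larval epithelial cells die and are replaced by an adult epithelium made by newly formed stem cells. T3 acts through TRα and TRβ, which bind their target genes both with and without hormone. Without hormone they recruit corepressors and hold these genes down, and with hormone they recruit coactivators. In animals without TR neither action is possible. In their intestine at the climax the study saw few dying cells and no clusters of adult stem cells. Folds of the epithelium, connective tissue and muscle developed early in these animals.

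RNA of the whole intestine was sequenced from WT tadpoles (TRα+/+TRβ+/+) and from TR double knockout tadpoles (TRDKO, TRα-/-TRβ-/-) at stage 54, before metamorphosis, and at stage 61, its climax. There were 3 libraries for each genotype and stage and 12 in all. TRDKO animals came from crosses of TRα-/-TRβ+/- frogs. Such crosses give no TRα+/+ tadpoles, so the WT tadpoles had other parents. In every comparison of the genotypes, genotype and parentage therefore cannot be told apart. The study kept 2 TRDKO lines with different deletions in TRβ, and its sequencing methods do not name the line. For the RNA used in PCR, tissue of several animals of a genotype was combined; for sequencing the methods give 3 biological replicates and do not describe pooling. TRDKO tadpoles stall at the climax, so stage 61 is the last stage they have.

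Total counts per library ranged from 20112705 to 37936503, and the limit that a count of 0 allows (3 counts) came to between 1.57 and 5.87 normalised counts. Within a group, most pairs of libraries differed by little more than counting noise. The median over genes of the squared difference was 1.19 to 1.87 times what noise alone gives. The exception was TRDKO stage 54 replicate 3, which differed from the other replicates of its group by 26.9 and 30.7 times that value. The stage 54 counts and the main values of the fall in TRDKO tadpoles are given with and without it; other values of that group include it. The labels do not say what sets the replicates apart, and p-values measure the spread between these libraries. The counts are listed by Ensembl ID alone, and the reference table used here could not be joined to them. The functions of the members, the TR genes and markers of the tissue were therefore not examined. As in any bulk sample, fewer cells of a type and less RNA per cell cannot be told apart.

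Members are numbered from 1 to 54 by their mean normalised count at stage 54 over both genotypes. Counts grow with transcript length as well as with transcript number, and no lengths were at hand, so this order only names the genes. By ID, 2 are given: member 1 (ENSXETG00000005714), with the highest count at stage 54, and member 2 (ENSXETG00000019306), with the largest fitted fall in WT tadpoles. Because reads of near-identical gene copies may have been split or lost in the counting, values of members that belong to gene families are uncertain.

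The rule started from 8757 genes that met its conditions on stage 54. Of these, 390 (4.45%) met the limit of an 8-fold fall in WT tadpoles and 69 (0.788%) met it in TRDKO tadpoles. The 54 members made up 13.8% of the genes past the limit in WT tadpoles and 78.3% of those past it in TRDKO tadpoles. The 3 members nearest the limit had a smaller fall of 8.44-fold, 8.58-fold and 8.59-fold. The 3 genes just outside fell 8.0-fold, 7.96-fold and 7.95-fold in TRDKO tadpoles, the first of them under 8 before rounding, and 44.7-fold, 44.0-fold and 32.8-fold in WT tadpoles. A further 18 genes met both falls but had a TRDKO mean at stage 54 no higher than the WT mean divided by 4. The nearest of these had a ratio of 0.227, against 0.257 for the nearest member. At the count minimum, the lowest member had 112 normalised counts in the lower of its stage 54 means and the nearest gene outside had 96.6.

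At stage 54 the members covered more than 3 orders of magnitude in count. Their WT means ran from 112 to 366244 normalised counts, with a median of 3094 and quartiles of 651 and 13960. The TRDKO means ran from 114 to 127634 with a median of 1467. Together the members took 2.595% ± 0.0232 (SD, n = 3) of all counts in WT tadpoles before metamorphosis. At the climax this share was 0.216% ± 0.00557 (SD, n = 3). For TRDKO tadpoles the shares were 1.97% ± 0.665 and 0.123% ± 0.000764 (SD, n = 3 each), and TRDKO stage 54 replicate 3 alone had 1.20%. Member 1 alone held 0.873% ± 0.0382 (SD, n = 3) of the WT counts at stage 54.

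**Figure D1:**
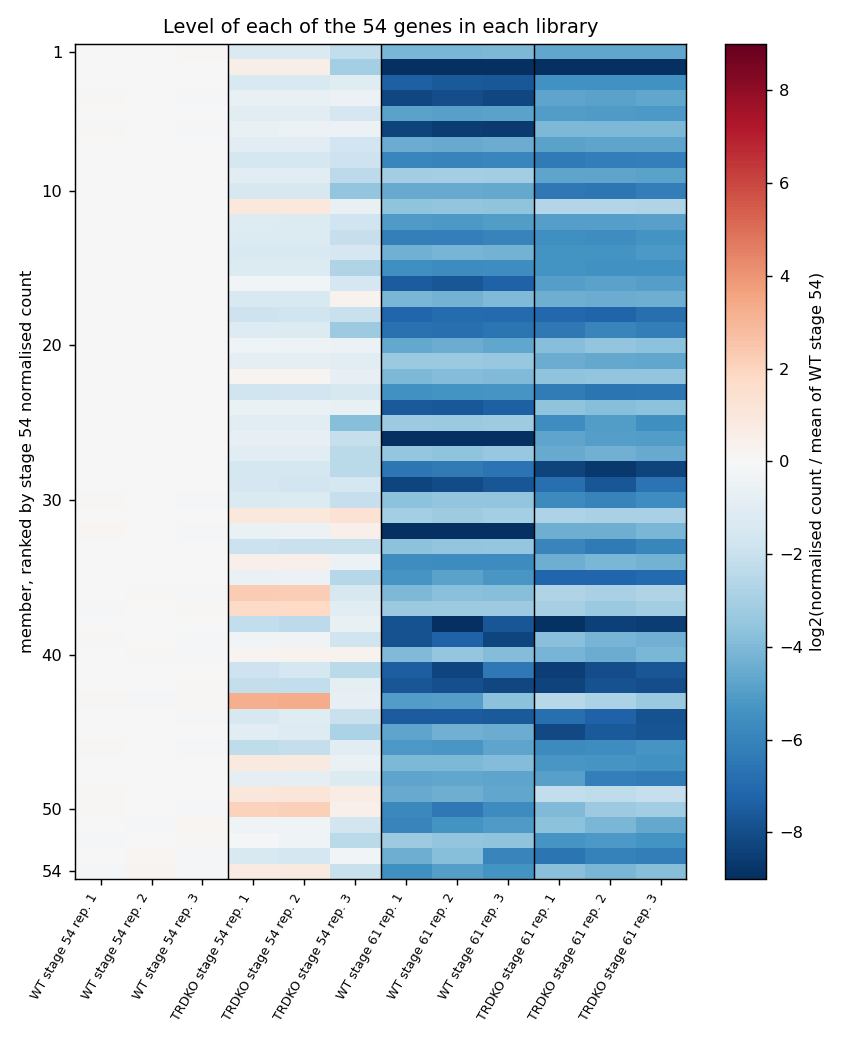
Level of each of the 54 members (rows, numbered by stage 54 count) in each of the 12 libraries (columns), as log2 of the normalised count over the mean of WT stage 54, with values under 3 counts drawn at 3 counts and the colour scale ending at -9 and 9. The stage 61 columns are blue in every row, and TRDKO stage 54 replicate 3 differs in colour from replicates 1 and 2 in many rows.

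Every member was above its stage 61 level at stage 54, but few were silent at the climax. In WT tadpoles no member lacked counts in all 3 libraries of stage 61, and in TRDKO tadpoles 3 members did. The highest count left was that of member 1. It had 355023, 358487 and 385220.5 normalised counts in the WT libraries at stage 54, and 21046, 20753 and 22732 at stage 61. In TRDKO tadpoles it had 146749, 147018 and 79264 at stage 54, and 14207, 14260 and 14173 at stage 61. At each stage its TRDKO libraries lay below its WT libraries, and TRDKO stage 54 replicate 3 lay below the other TRDKO libraries of that stage. At stage 61 the gene kept 5.87% of its stage 54 level in WT and 11.4% in TRDKO tadpoles (9.68% without replicate 3).

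In WT tadpoles the fall of the members had a median of 33.7-fold, with lower and upper quartiles of 16.3-fold and 140-fold. All 54 were called lower at stage 61 (edgeR's quasi-likelihood test, adjusted p under 0.05 and more than 2-fold), against 21.2% of the 13954 genes tested, and none higher, against 30.4%. This count follows from the rule and is no finding. The median fitted log2 change of the members was -5.04, beside 0.13 over all genes tested. A fall of at least 100-fold was seen in 16 members. Member 2 went furthest among those with more than a few counts left. It had 122705, 125980 and 127130 normalised counts in the WT libraries at stage 54, and 38.8, 56.6 and 23.8 at stage 61. Its stage 61 level was 0.0317% of the stage 54 level (log2 change -11.53, standard error 0.99). Member 32 fell from 1780, 1594 and 1449 normalised counts to 1, 1 and 0 raw counts, a fall of at least 798-fold against a limit of 3 counts in each library.

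In TRDKO tadpoles the median fitted log2 change of the members was -4.18, beside 0.00 over all genes tested. All 54 were called lower at stage 61, again by the rule, against 12% of the genes tested, and none higher, against 12.5%. The stage 61 level was 5.55% of the stage 54 level at the median of the members, and 2.97% in WT tadpoles. With genes of at most 3 counts in each library set to 3 counts, a fall of at least 100-fold was reached in 3 members (2, 38 and 41). Without TRDKO stage 54 replicate 3 it was reached in 4 (2, 28, 41 and 45), and the median share left was 4.55%. Member 45 had 1 to 3 raw counts in these stage 61 libraries, so setting it to 3 counts gives no strict limit. Member 2 again fell far, from 184295, 183239 and 15369 normalised counts at stage 54 to 254, 236 and 255 at stage 61. Even its low value in TRDKO stage 54 replicate 3 stood well above the stage 61 libraries. Its fitted log2 change was -9.01 with a standard error of 0.89, and -9.53 without that replicate.

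Members 38, 42 and 53 had 0 counts in all 3 TRDKO libraries of stage 61. Member 38 had 242, 212 and 701 normalised counts in the TRDKO libraries of stage 54, a fall of at least 135-fold (79.9-fold without replicate 3). Member 42 had 172, 160 and 418, a fall of at least 87.8-fold (58.3-fold without replicate 3). Member 53 had 83.4, 72.1 and 187, a fall of at least 40.1-fold (27.3-fold without replicate 3). In all 3 genes the highest TRDKO value was in stage 54 replicate 3, the replicate in which most other members were low. The WT libraries of stage 61 still held 4 to 8 raw counts of member 38, 1 to 6 of member 42 and 4 to 29 of member 53.

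**Figure D2:**
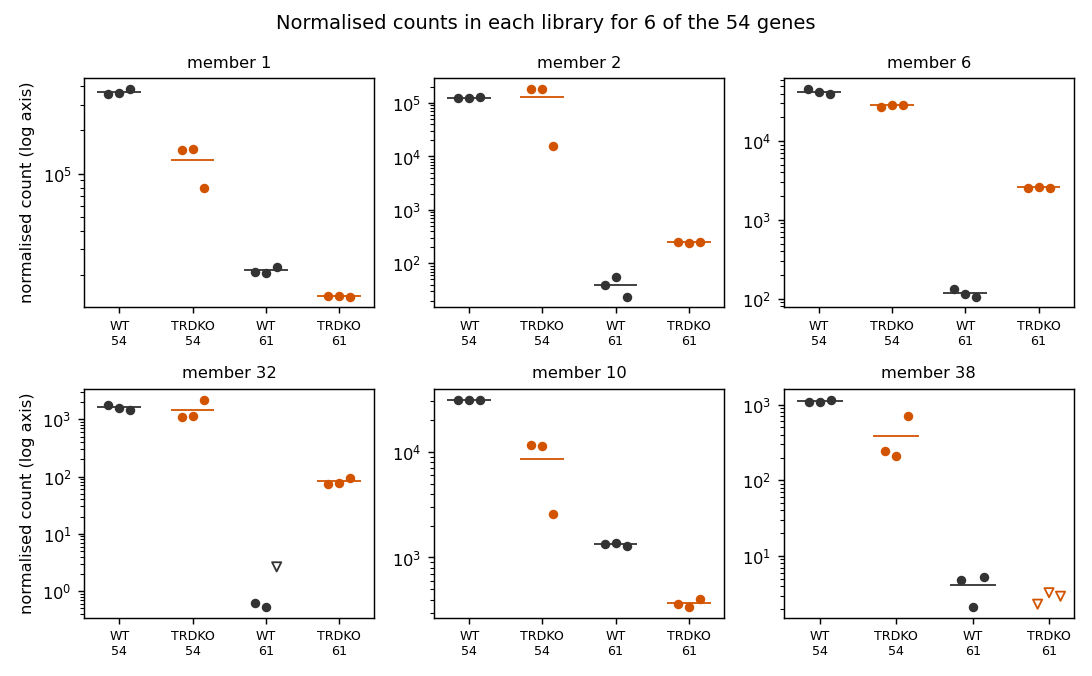
Normalised counts (log axis, a separate scale in each panel) of members 1, 2, 6, 32, 10 and 38 in each library, with WT in black and TRDKO in orange. Filled points are libraries and lines are means, drawn only for groups above the limit of 3 counts; open triangles mark libraries with no count, drawn at 3 counts. Members 6 and 32 were higher and member 10 was lower in TRDKO than in WT tadpoles at stage 61.

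Since the falls of the genotypes chose the members, their difference is given as a description. The fitted fall was larger in WT tadpoles in 35 of the 54 members and larger in TRDKO tadpoles in 19. The difference exceeded 1 log2 unit in 32 members, of which 23 fell further in WT and 9 fell further in TRDKO tadpoles. Over all 13954 genes tested, the TRDKO change minus the WT change was called past 1 log2 unit, positive in 2374 and negative in 3735. Those calls also needed an adjusted p under 0.05 (edgeR), which the member counts did not, so the counts are not alike. The median difference over the members was 0.65 log2 units towards a deeper fall in WT tadpoles, beside -0.18 over all genes tested. Its sign depended on the scaling. With library size alone it was -0.56, while that scaling put the median over all genes at -1.38. A change of scaling shifts every gene by nearly the same amount, so the members kept their place relative to all genes. Nothing is read from this. Across the 54 members the log2 falls of the genotypes were weakly related (Pearson's r = 0.393, Spearman's rho = 0.281, genes without TRDKO counts set to the limit of 3 counts). The members share their libraries and the rule removes small falls, so this is a description only.

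**Figure D3:**
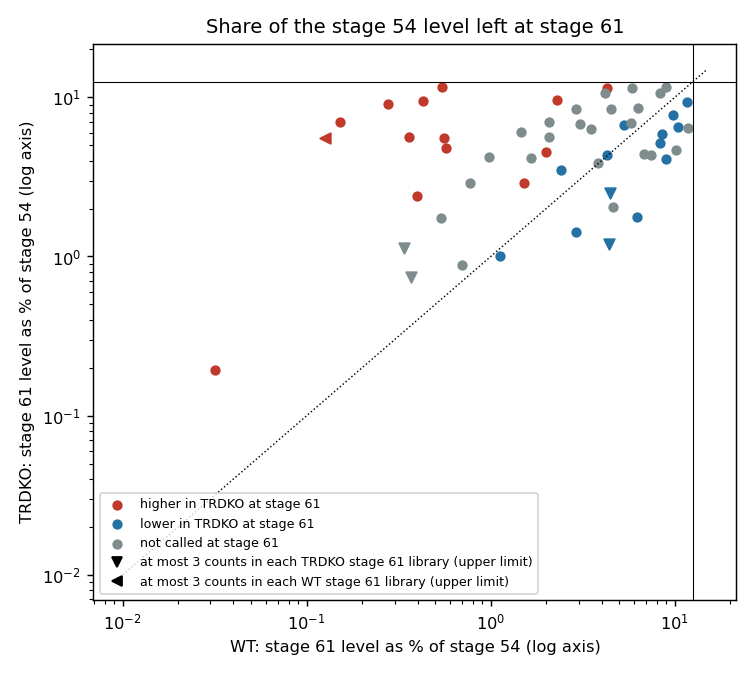
Stage 61 level as a percentage of the stage 54 level in WT (x axis) and TRDKO tadpoles (y axis) for the 54 members, both axes on a log scale, coloured by the comparison of the genotypes at stage 61. Triangles are members with at most 3 counts in each library of a group, drawn at 3 counts. Solid lines mark the limit of the rule, and points above the dotted line kept a larger share in TRDKO tadpoles. Members higher in TRDKO at stage 61 kept a median of 0.485% in WT and 5.60% in TRDKO tadpoles. The stage 61 level is part of these shares, so the colouring largely fixes which genotype kept more.

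At stage 54, before the fall, most members already had lower normalised counts in TRDKO than in WT tadpoles. The TRDKO mean was below the WT mean in 42 of the 54 members, and in 41 without replicate 3. The median ratio of TRDKO to WT was 0.493 (0.518 without replicate 3), with quartiles of 0.349 and 0.871. The size of this difference depended on the scaling. With library size alone the median log2 difference of the members was smaller, at -0.43, still towards lower counts in TRDKO tadpoles. That scaling moved the median over all genes tested from 0.12 to 0.69. All 3 TRDKO libraries lay below all WT libraries in 38 members (70.4%), against 33.2% of the genes tested, and above them in 4 members (7.41%), against 34.9%. Replicates 1 and 2 alone lay below all WT libraries in 40 members and above them in 13, against 40.4% and 43% of the 14200 genes tested without replicate 3. By edgeR's test, 27 members were called lower and 5 (9.26%) higher, against 12% and 21.7% of the genes tested. Without replicate 3, 22 were called lower and 5 higher, against 12.5% and 21.5%. The rule bounded this ratio from below and so used this comparison, and nothing is read from these counts. The 5 members with a TRDKO mean more than 2-fold above the WT mean were members 31, 36, 37, 43 and 50. In 3 of these, members 36, 37 and 43, replicate 3 lay below all WT libraries while replicates 1 and 2 lay above them. Member 36 had 464, 507 and 442 normalised counts in WT and 2252, 2192 and 172 in TRDKO libraries. Member 37 had 505, 574 and 582 in WT and 1835, 1885 and 280 in TRDKO libraries. Member 43 had 125, 101 and 123 normalised counts in WT and 1135, 1187 and 70.1 in TRDKO libraries.

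By their median coefficient of variation, the members varied most between the TRDKO libraries of stage 54, and replicate 3 stood apart. The coefficient of variation of the members had a median of 38.6% in that group, against 3.14% in WT tadpoles at stage 54. At stage 61 it was 8.36% in WT and 8.91% in TRDKO tadpoles. Over the 8885 genes with a mean of at least 100 normalised counts in both genotypes at stage 54, the median was 14.6% in TRDKO tadpoles at stage 54. In replicate 3, 40 members (74.1%) lay below both other replicates, against 43.8% of the genes tested. It was more than 2-fold below the mean of replicates 1 and 2 in 22 members (40.7%), against 10.7% of the genes tested, and more than 2-fold above in 5 (9.26%), against 7.99%. The median ratio to replicates 1 and 2 was 0.590 in the members and 1.004 over the 8885 genes. Between replicates 1 and 2 the ratio stayed between 0.845 and 1.27 in every member. The rule used the mean of the TRDKO libraries of stage 54, so the members were partly chosen by these values. Nothing is read from the shares above as a trait of the members.

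The members differed among themselves in replicate 3. The part of this library in the stage 54 results was not tested beyond leaving it out. Members 2, 25, 36, 37, 43 and 54 were at ratios of 0.0836, 0.137, 0.0775, 0.150, 0.0604 and 0.150 to the other replicates. Members 17, 38, 42, 46 and 53 were at 3.17, 3.08, 2.52, 2.34 and 2.40. Members 3, 4, 6 and 24 were at 1.24, 1.10, 1.03 and 0.976. In all 54 members replicate 3 was still above every TRDKO library of stage 61, and in 36 it exceeded the stage 61 mean more than 8-fold. Replicates 1 and 2 did so in all 54. The rule applied without replicate 3 gave 62 genes, of which 50 were among the 54.

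**Figure D4:**
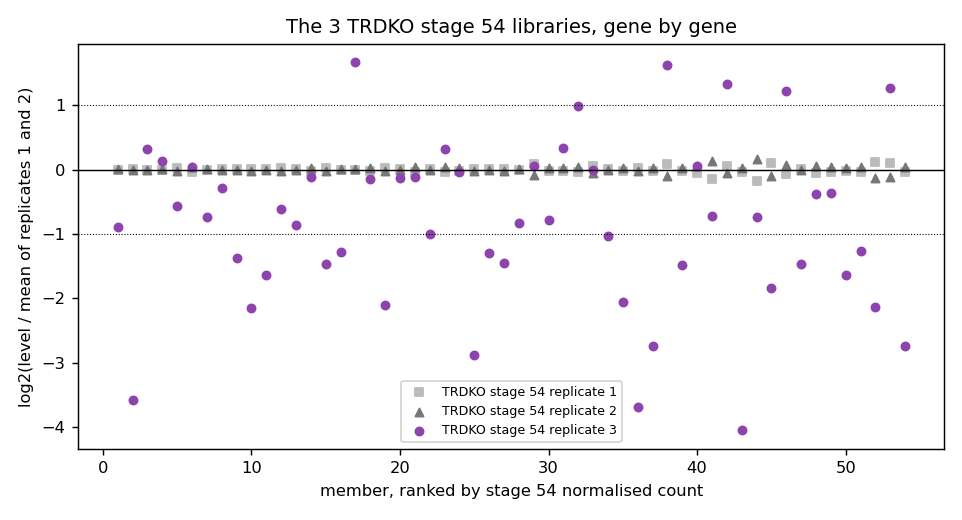
Level of each member in the 3 TRDKO libraries of stage 54, as log2 of the normalised count over the mean of replicates 1 and 2, against the number of the member. Replicates 1 and 2 (grey) lie near 0 and replicate 3 (purple) lies more than 1 log2 unit below in 22 members and above in 5.

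The rule did not compare the genotypes with each other at stage 61, and this comparison was tested (edgeR's quasi-likelihood test in 1 fit of all 12 libraries, adjusted over the 13954 genes). It asks whether the members reached the same level at the climax with and without TR. The rule had capped the stage 61 mean of each genotype, so genes that stayed high in either genotype were left out. The members made up 13.8% of the genes past the limit in WT tadpoles, and the counts below hold for them alone. Of the 54 members, 14 were higher and 14 were lower in TRDKO than in WT tadpoles at an adjusted p under 0.05 and more than 2-fold. Each direction held 25.9% of the members, against 14.1% of the genes tested that were higher and 20.1% that were lower. The median log2 difference was 0.05 in the members and -0.11 over all genes tested. At an adjusted p under 0.05 alone, 17 members (31.5%) were higher, against 30.8% of the genes tested, and 19 (35.2%) were lower, against 39.4%. The libraries of the genotypes were apart in 25 members in each direction (46.3%), against 38.8% of the genes tested with TRDKO above WT and 46.3% with TRDKO below WT. With each of the 12 libraries left out in turn, 12 to 17 members were called higher and 12 to 17 lower. Both counts were 12 without TRDKO stage 61 replicate 1, against 1950 higher and 2723 lower of the 14179 genes tested. Both were 17 without TRDKO stage 54 replicate 3, against 2109 and 2943 of 14200. Leaving out WT stage 61 replicate 1 gave 13 higher and 12 lower members, against 2176 and 2487 of 14138 genes. The calls over all genes thus also moved with the library left out. With library size alone, 11 were higher and 22 lower, against 946 and 5438 of the 13954 genes tested. That scaling moved the median over all genes from -0.11 to -0.75.

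The 14 members higher in TRDKO tadpoles differed by a median of 2.58 log2 units. Those with the highest stage 54 counts were members 2, 3, 4 and 6. Member 6 had 130, 114 and 106 normalised counts in the WT libraries of stage 61, and 2567, 2602 and 2542 in the TRDKO libraries. The groups lay far apart, with a log2 difference of 4.43 (standard error 0.09, adjusted p = 1.81e-11, edgeR). At stage 54 this gene had 45922, 41741 and 39697 normalised counts in WT and 27349, 28889 and 28956 in TRDKO libraries. In normalised counts its order between the genotypes thus turned over between the stages. The stage 54 part of this depends on the scaling, which library size alone shifts towards TRDKO tadpoles.

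Member 4 showed the same pattern, with 215, 245 and 208 normalised counts in WT and 2279, 2204 and 2386 in TRDKO libraries at stage 61. Its log2 difference was 3.33 (standard error 0.08, adjusted p = 7.56e-11, edgeR). Member 3 had 771, 692 and 657 in WT and 2978, 2885 and 2868 in TRDKO libraries, a log2 difference of 2.02 (standard error 0.09, adjusted p = 6.77e-09, edgeR). In normalised counts members 3, 4 and 6 were all lower in TRDKO than in WT tadpoles at stage 54, again subject to the scaling. In these genes TRDKO stage 54 replicate 3 stood within 1.24-fold of the other replicates. Member 24, at a lower count, had 15.8, 15.2 and 18.5 normalised counts in WT and 246, 215 and 233 in TRDKO libraries (log2 difference 3.80, standard error 0.09, adjusted p = 7.56e-11, edgeR).

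Members 32 and 2 had the lowest shares left in WT tadpoles. Member 32 was at 0 or 1 raw counts in the WT libraries of stage 61 and had 74.8, 77.5 and 94.2 normalised counts in the TRDKO libraries, at least 40.8-fold higher than the limit of 3 counts (adjusted p = 1.35e-06, edgeR). Member 2 had 38.8, 56.6 and 23.8 in WT and 254, 236 and 255 in TRDKO libraries, a log2 difference of 2.57 (standard error 0.76, adjusted p = 0.0108, edgeR). Without TRDKO stage 54 replicate 3, 17 members were called higher, against 2109 of the 14200 genes tested. That library is in neither group of this comparison but shares its fit. The fit has 1 spread for each gene over all 12 libraries, so this replicate also widens standard errors and raises p-values at stage 61. For member 2 the log2 difference was 2.53 without it (adjusted p = 1.61e-41, edgeR). With stage 61 fitted alone the difference of member 2 was 2.63 (adjusted p = 1.36e-28, edgeR). The 14 members had fallen by a median log2 change of -7.59 in WT and -4.17 in TRDKO tadpoles, and 10 of them fell more than 100-fold in WT tadpoles. The stage 61 level is part of each fall, so splitting the members by it largely fixes which genotype fell further, and nothing is read from these falls.

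The 14 members lower in TRDKO tadpoles at stage 61 differed by a median log2 value of -1.93. Those with the highest stage 54 counts were members 9 and 10. Member 10 had 1341, 1368 and 1285 normalised counts in WT and 361, 337 and 406 in TRDKO libraries at stage 61 (log2 difference -1.88, standard error 0.42, adjusted p = 0.00208, edgeR). It had already been lower at stage 54, with 30744, 31154 and 31165 in WT and 11575, 11331 and 2591 in TRDKO libraries, and it kept 4.29% of its stage 54 level in WT and 4.33% in TRDKO tadpoles (3.21% without replicate 3). Member 33 went from 2375, 2309 and 2481 to 188, 204 and 218 normalised counts in WT, and from 636, 594 and 610 to 39.3, 28.4 and 41.2 in TRDKO libraries. Its libraries were apart at both stages, and its log2 difference at stage 61 was -2.49 (standard error 0.11, adjusted p = 8.24e-09, edgeR).

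The members lower in TRDKO tadpoles had a median ratio of TRDKO to WT of 0.376 at stage 54, and the mean was below that of WT tadpoles in 13 of the 14. Their median log2 change between the stages was -4.08 in WT and -4.55 in TRDKO tadpoles, and none fell more than 100-fold in WT tadpoles, values that the split by stage 61 level again largely fixes. In the members higher in TRDKO tadpoles the median ratio at stage 54 was 0.664, with 10 of the 14 below the WT mean. In the 26 members not called it was 0.416, with 19 below the WT mean. These stage 54 values include replicate 3. Member 53, with no count in the TRDKO libraries, was at least 3.40-fold lower than its WT mean of 9.68 normalised counts (adjusted p = 0.0035, edgeR). It had too few counts to be tested when the 6 libraries of stage 61 were fitted alone. Member 45, with 1 to 3 raw counts in the TRDKO libraries, was 9.74-fold lower when set to 3 counts in each (adjusted p = 0.00133, edgeR). With counts above 0 this value is no strict limit.

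The remaining 26 members were not called at stage 61, which does not show that their levels were alike. Of these, 8 passed an adjusted p of 0.05 but differed by less than 2-fold, among them member 1 with a log2 difference of -0.62 (standard error 0.18, adjusted p = 0.0105, edgeR). With library size alone that gene was called lower, at -1.26. Without TRDKO stage 54 replicate 3, which shares the fit, its log2 difference was -0.62 (adjusted p = 1.305e-40, edgeR). Members 38 and 42, without counts in the TRDKO libraries, had adjusted p-values of 0.112 and 0.0835 (edgeR). Member 18 had a log2 difference of -0.02 with a standard error of 0.10 (adjusted p = 0.893, edgeR).

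**Figure D5:**
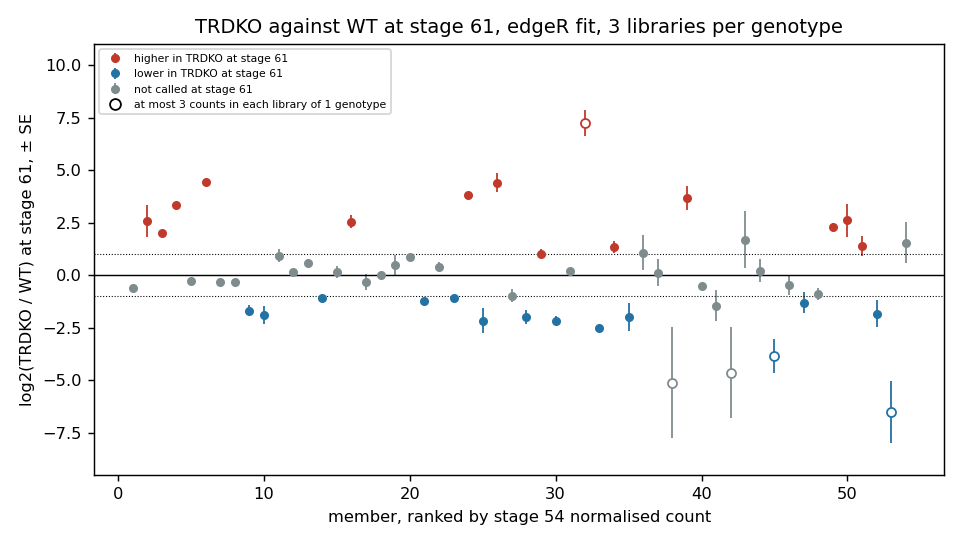
Fitted log2 ratio of TRDKO to WT at stage 61 for each member, against the number of the member, with bars of 1 standard error from the edgeR fit. Of the 54 members, 14 are called higher (red), 14 lower (blue) and 26 are not called (grey); dotted lines mark 2-fold, and open points, with at most 3 counts in each library of a genotype, have fitted values that depend on a small added count.

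Of the 28 calls, 12 of the 14 higher and 9 of the 14 lower members were called in every fit that left out 1 library. Member 47 (log2 difference -1.31, adjusted p = 0.0389, edgeR) lost its call in 6 of these fits, each without 1 library of stage 61. Member 52 lost its call in 3, and members 29, 35 and 51 lost theirs in 2 each. With the other alternatives included, 10 of the 14 higher and 8 of the 14 lower members were called in every fit. Members 29, 34 and 51 were not called with library size alone. Members 23, 50 and 53 were without a call when stage 61 was fitted alone, members 50 and 53 because their counts were too low to be tested. A member not tested in a fit is counted here as not called.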

How the data were processed

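Whole-intestine RNA of WT and TRDKO tadpoles at stages 54 and 61 was sequenced as poly-A-selected libraries made with a stranded kit. The authors mapped adapter-removed reads with STAR 2.6.1c (versions per the labels) to the Ensembl Xenopus tropicalis genome and counted them per gene with featureCounts 1.6.3. The deposited values are these raw counts of 19921 Ensembl IDs, without normalization. Mapping settings were left at their defaults; the strand and multi-mapping settings of the counting are not given in the sources used here.

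Size factors and the rule were computed from the counts with pandas 2.3.3. For the tests, the 13954 genes kept by filterByExpr were scaled by TMM and fitted with edgeR 4.0.16 in R 4.3.3 (quasi-likelihood, 1 mean per group, 12 libraries), with Benjamini-Hochberg adjustment over all of them. All 54 members passed this filter. Genes were called at an adjusted p under 0.05 and more than 2-fold. Limits of fold changes use 3 counts in each library, averaged over the group, and cover counting error only. They were set for counts of 0 and need not hold for genes with 1 to 3 counts in each library. The stage 61 comparison was also run on simulated data with few genes changed, as many raised as lowered. That run does not test how the results depend on the scaling.

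The members and lists were chosen with earlier results of these data known. The rule for members to describe took those of highest stage 54 count, largest fitted falls, most extreme genotype ratios at each stage, largest variation between the TRDKO libraries of stage 54 and nearest place to the 8-fold limit. Without gene names it gave only 2 by ID, the one of highest stage 54 count and the one of largest fitted fall in WT tadpoles. Members outside this rule were picked after their values were seen. Lists of genes by symbol had been drawn up for digestive enzymes, brush border hydrolases, nutrient transporters, lipid handling, thyroid hormone response, blood cells, goblet cells, dividing cells and other groups. None could be run, since 0 IDs matched the gene table (assembly UCB_Xtro_10.0). Alternatives were DESeq2 1.42.0, RLE size factors, library size alone, other filters and thresholds, stage 61 alone, a replicate block and each library left out.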

Additional observations from a re-analysis of the deposited data

How the results depend on the processing

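The number of members was 54 by the rule, 152 with a 4-fold and 26 with a 16-fold fall, and 53 to 62 with each library left out. Library size alone gave 42 genes, of which 34 were among the 54, and TMM gave 56. Library size alone moved the median over all genes tested from 0.13 to 1.33 in the WT stage comparison and gave the following values. The lower members at stage 61 numbered 22, against 5438 of the 13954 genes tested. The median over members was -3.83 for the fall in WT tadpoles and -0.43 for the genotype difference at stage 54. It was -0.58 for the genotype difference at stage 61 and -0.56 for the difference between the falls. For member 1 this scaling gave a fall of -2.84 in WT tadpoles and a stage 54 difference of -0.96, and for member 2 a fall of -10.33. Without the 5 members of highest count, the members took 0.821% and 0.620% of the counts at stage 54 (WT, then TRDKO) and 0.0760% and 0.0463% at stage 61. With each library left out, the median over members was between -5.16 and -5.02 for the fall in WT tadpoles, between -4.47 and -4.15 in TRDKO tadpoles, between -0.12 and 0.17 for the difference at stage 61, and between 0.60 and 0.95 for the difference between the falls. DESeq2 called 14 higher and 16 lower members, against 2182 and 2796 of the 15677 genes with an adjusted p-value. Same-numbered libraries deviated together by correlations of only -0.027 to 0.043, and not every library correlated best with its own number. Most libraries differed within their group by little more than counting noise, so these correlations cannot show whether the numbers pair the samples. The replicate block called 14 higher and 14 lower members, the same genes as without it, against 1982 and 2790 of the 13954 genes tested. When the 6 libraries of stage 61 were fitted alone, 16 members were higher and 12 lower, with 7 not tested. Over all genes, 2232 were higher and 2568 lower of the 13833 tested in that fit. The cause of the changes under other scalings was not tested. No member that was called changed direction under any of these alternatives. Genes with few counts at stage 61 limit what can be said of the deepest falls.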
